A study of Mus musculus with 3 samples.

Results

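The 36 genes described here act when a cell copies its DNA or divides. They were found by symbol among the 31053 genes counted, and their levels were followed through the lymphoid, myeloid and plasma cell types of the mouse pancreas. The S-phase group had 11 members (Mcm2, Mcm3, Mcm4, Mcm5, Mcm6, Mcm7, Pcna, Rrm1, Rrm2, Tyms and Tk1) and the mitotic group had 23 (Mki67, Top2a, Birc5, Cdk1, Ccnb1, Ccnb2, Ccna2, Cenpf, Cenpe, Cenpa, Ube2c, Tpx2, Aurka, Aurkb, Bub1, Bub1b, Plk1, Kif11, Kif20a, Nusap1, Hmmr, Cdc20 and Cks2). The remaining 2, Pclaf and Uhrf1, work beside the replication fork and were put in neither group. The data were 3 libraries of droplet single-cell RNA-Seq from live CD45+ cells sorted from digested pancreas. The control library came from PBS-treated mice, and the others from mice given WGP, a particulate yeast beta-glucan, 3 days (3-day WGP) or 7 days (7-day WGP) before euthanization. The methods describe C57BL/6 young adult mice of both sexes and a single intraperitoneal injection. The labels give neither how many mice were pooled into a library nor their sex, and no mutant allele.

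Each treatment was thus 1 library, no test between treatments was possible, and the exact 95% intervals below (Poisson for UMIs, binomial for shares) cover counting error only. The Poisson ones take UMIs as independent, also where few cells hold most of them. Overlapping intervals do not show that shares are equal. For some classes the log2 ratio of the shares is given with its own log-scale counting interval. Barcodes with at least 1000 UMIs and at most 30% of UMIs from mitochondrial genes numbered 5249 (PBS), 4879 (3-day WGP) and 4174 (7-day WGP). After removal of likely doublets, 5029, 4689 and 4035 cells were kept, from 48219246 to 56849043 UMIs per library over all barcodes. The libraries shared between 1 and 7 barcodes pairwise.

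Cells that divide pass from G1 into S phase, when the MCM helicase opens DNA, PCNA holds the polymerase, and ribonucleotide reductase (Rrm1, Rrm2), thymidylate synthase (Tyms) and thymidine kinase (Tk1) supply nucleotides. In G2 and mitosis, cyclin B with Cdk1 drives entry, Top2a untangles chromosomes, Aurora and Polo kinases and kinesins build the spindle, and Cdc20 and Ube2c direct the ubiquitin ligase that ends mitosis. E2F factors switch on many S-phase genes. The DREAM and MuvB complexes act on many mitotic genes through CHR elements, and many promoters of both groups also hold CCAAT boxes.

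The 250 bases before the start of 2 mitotic and 2 S-phase members are shown, as CHR elements are tied to many mitotic genes and E2F sites to many S-phase genes. They were read from RefSeq promoters of GRCm38.p6, the assembly of the mm10 reference named for the counts: Ccnb2 (chr9:70421555-70421804, minus strand), Cdc20 (chr4:118437344-118437593, minus strand), Mcm5 (chr8:75109259-75109508, plus strand) and Mcm6 (chr1:128359706-128359955, minus strand). Capitals mark the CHR letters TTTGAA and the CCAAT box in Ccnb2 and Cdc20, and the E2F letters GCGCCAA or TTGGCGC and the CCAAT box or its complement ATTGG in Mcm5 and Mcm6.
Ccnb2: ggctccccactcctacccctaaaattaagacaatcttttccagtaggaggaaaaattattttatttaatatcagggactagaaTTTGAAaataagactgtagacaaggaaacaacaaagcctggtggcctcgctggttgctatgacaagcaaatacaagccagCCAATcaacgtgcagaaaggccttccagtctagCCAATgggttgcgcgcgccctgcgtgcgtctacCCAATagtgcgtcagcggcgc
Cdc20: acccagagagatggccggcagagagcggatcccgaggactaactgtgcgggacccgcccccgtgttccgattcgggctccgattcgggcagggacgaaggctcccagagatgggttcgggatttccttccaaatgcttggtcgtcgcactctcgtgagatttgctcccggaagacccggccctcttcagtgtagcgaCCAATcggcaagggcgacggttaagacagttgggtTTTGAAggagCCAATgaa
Mcm5: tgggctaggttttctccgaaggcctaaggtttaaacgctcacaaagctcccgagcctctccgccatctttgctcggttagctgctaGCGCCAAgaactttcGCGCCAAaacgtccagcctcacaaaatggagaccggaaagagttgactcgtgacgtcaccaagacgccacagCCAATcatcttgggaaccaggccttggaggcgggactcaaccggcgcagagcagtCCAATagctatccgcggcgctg
Mcm6: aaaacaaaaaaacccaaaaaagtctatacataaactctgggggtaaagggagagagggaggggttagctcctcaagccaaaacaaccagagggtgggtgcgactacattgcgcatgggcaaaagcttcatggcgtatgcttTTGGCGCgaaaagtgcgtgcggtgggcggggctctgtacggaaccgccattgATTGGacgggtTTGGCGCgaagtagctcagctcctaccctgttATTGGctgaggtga
Promoters of 31 of the 36 genes were in the table, as 33 entries. Of 19 mitotic promoters, 8 (42.1%) held CHR letters (TTTGAA or TTCGAA, and on the other strand TTCAAA), against 17.1% of all 32851 promoters of the same length, and the same 8 also held a CCAAT box, a pairing seen in 6.02% of all. E2F letters (TTGGCGC or TTCCCGC, and on the other strand GCGCCAA or GCGGGAA) were in 5 of 11 S-phase entries (45.5%), in 3 of 19 mitotic ones (15.8%) and in 5.62% of all. Mcm7 had 2 entries, both with E2F letters, so by gene 4 of 10 S-phase members held them. CCAAT was common to both groups, in 17 mitotic (89.5%) and 9 S-phase entries (81.8%) against 33.8% of all. Both strands were searched, ATTGG and TTGGCGC can share letters, and a match is a string of letters, not a measured site.

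To find the cells that carried these transcripts, each cell was thinned at random to 1000 UMIs. It was called mitotic-high with at least 2 mitotic UMIs and S-high with at least 2 S-phase UMIs. The share of mitotic-high cells over whole libraries had overlapping intervals, though not within cells of 1 sex transcript, as given below. In PBS it was 4.57% (230 cells, interval 4.01 to 5.19), in 3-day WGP 5.03% (236 cells, 4.42 to 5.70) and in 7-day WGP 4.56% (184 cells, 3.94 to 5.25). S-high cells made up 4.39% (3.84 to 5.0), 4.76% (4.16 to 5.40) and 3.92% (3.34 to 4.56) in the same order, and all 3 intervals overlapped for both calls. Both calls fell on the same cell in 71, 73 and 73 cells.

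Calls near the limit were common for the S-phase group. Of the cells called S-high, 138 (PBS), 130 (3-day WGP) and 77 (7-day WGP) had exactly 2 UMIs, and the highest had 7, 10 and 9. Mitotic-high cells reached 31, 28 and 25 UMIs, with 72, 63 and 61 cells at exactly 2. Just below the limit, at 1 mitotic UMI, lay 484, 465 and 397 cells. Mitotic-high cells held more RNA before thinning, with a median of 13951.5 UMIs (PBS), 15415.5 (3-day WGP) and 13530.5 (7-day WGP) against 5241, 5305 and 7644.5 in cells with neither call, and 66.5%, 69.1% and 61.4% of them exceeded 10000 UMIs. The part of cell doublets in this was not tested. Free RNA, read from barcodes of at most 100 UMIs, carried 281, 277 and 280 CPM of S-phase members and 562, 473 and 409 CPM of mitotic members, against 343, 348 and 332 CPM and 651, 678 and 570 CPM in cells (CPM, UMIs per 1e+06 UMIs, not divided by gene length, as the reads are 3′ ends).

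Level by level, the members also differed little between whole libraries. Mki67, the antigen used to stain dividing cells, stood at 91.8 CPM (interval 89.0 to 94.8) in PBS, 97.1 (94.3 to 99.9) in 3-day WGP and 81.9 (79.1 to 84.8) in 7-day WGP. Top2a, the topoisomerase, had 76.5, 78.5 and 73.1 CPM. Ube2c, the E2 enzyme of the anaphase-promoting complex, was highest in 3-day WGP, with 56.5 (54.3 to 58.8), 71.5 (69.1 to 73.9) and 48.2 (46.1 to 50.5) CPM. Cdc20, the activator of the same complex, had the same order, 16.7, 21.5 and 10.1 CPM. Survivin, encoded by Birc5, stood at 41.6, 42.5 and 35.8 CPM, the kinase Cdk1 at 23.5, 27 and 20.5, and cyclin B2, encoded by Ccnb2, at 22.8, 21.6 and 16.3. These mitotic genes were all lowest in 7-day WGP, in which the intervals of Mki67, Birc5, Cdk1, Ccnb2, Ube2c and Cdc20 lay below those of both other libraries. The 21 mitotic genes other than Cks2 and Cenpa had 50% of their UMIs in 51, 59 and 34 cells. As these intervals take UMIs as independent, they are too narrow for differences between cells.

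S-phase members had no common order. The clamp Pcna was lowest in PBS, at 54.6 CPM (52.4 to 56.8), with 57.2 (55.1 to 59.4) in 3-day and 61.6 (59.2 to 64.1) in 7-day WGP. The helicase subunit Mcm5 had 30.5, 29.3 and 28.2 CPM with overlapping intervals, and Mcm6 had 43.3, 44.7 and 37.6 CPM. Rrm2, the S-phase subunit of ribonucleotide reductase, was higher at 3 days, at 33.3 CPM (31.7 to 35.0) between 26.4 and 27.4. Tyms stood at 20.1, 22.7 and 20.8 CPM and Tk1 at 15.6, 15.5 and 12.5. Pclaf, which binds PCNA, had 60.9, 72.8 and 61.8 CPM. Cks2, a small partner of Cdk1, was unlike the mitotic genes above in being lowest in PBS, with 43.6, 53.8 and 55.0 CPM.

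The weakest member was Bub1 in the first 2 libraries, at 5.67 and 5.28 CPM, and Kif20a in 7-day WGP, at 4.36. On the scale of log2(CPM + 10), 32 of the 36 members reached 10 CPM in a library, and 0 of them differed from PBS by 1 or more in either WGP library. Over all genes at that level, 1.19% were higher and 0.8% lower by as much in 3-day WGP, and 3.7% higher and 1.43% lower in 7-day WGP. The median member ratio was 0.02 at 3 days and -0.10 at 7 days, beside -0.08 and 0.01 over all genes. In this count and those for single classes below, a member could reach 10 CPM through the library where it was high alone. The counts therefore describe the members and support nothing.

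**Figure D1:**
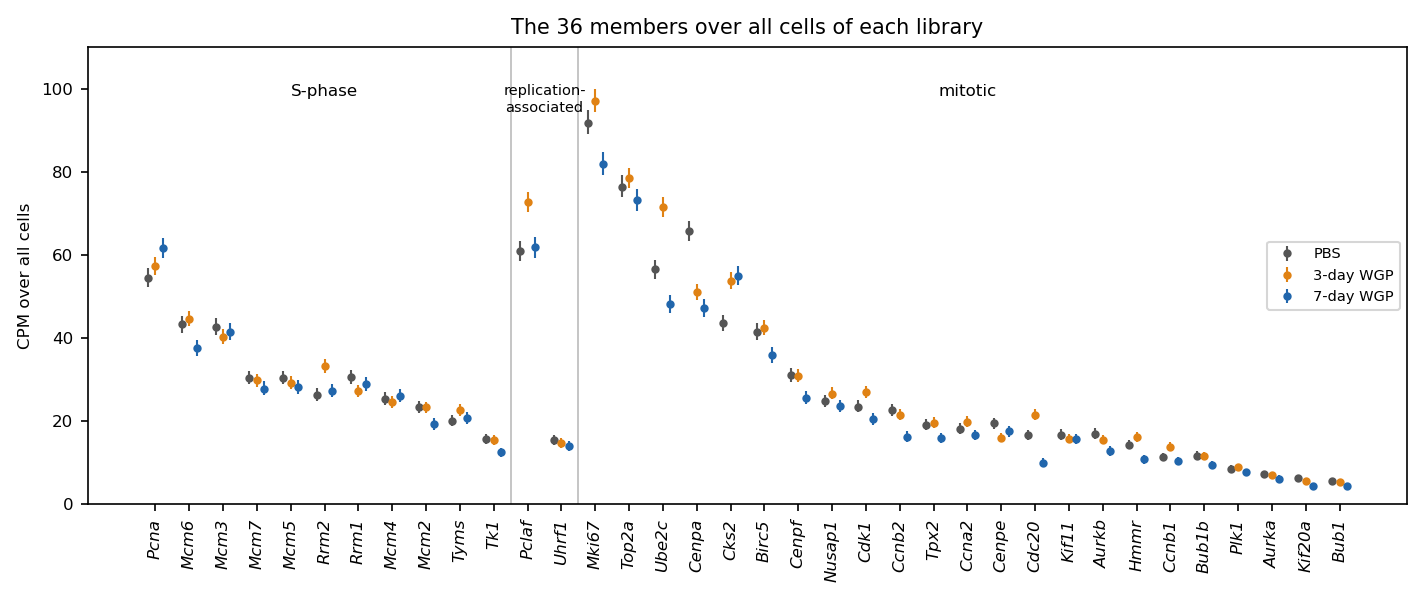
CPM over all kept cells (y axis) of each of the 36 members (x axis), with a dot for each library and exact 95% Poisson intervals as bars. Most members lie close together in the 3 libraries, with Mki67 and Top2a above 70 CPM and Bub1 near 5 CPM.

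The cells behind these even totals differed. Lymphoid clusters had 2.25% mitotic-high cells in PBS (65 of 2895, 1.74 to 2.85), 4.33% in 3-day WGP (108 of 2495, 3.56 to 5.20) and 6.24% in 7-day WGP (103 of 1650, 5.12 to 7.52). Myeloid clusters went the other way, from 10.2% (135 of 1319, 8.65 to 12) to 4.12% (55 of 1336, 3.12 to 5.33) and 2.72% (56 of 2062, 2.06 to 3.51). In both lineages the PBS interval did not overlap those of the WGP libraries. The classes within each lineage changed in number as well. From PBS to 7-day WGP, the Ighd B cell-like clusters held 651, 285 and 255 (deeper) and 745, 247 and 107 cells (shallower). Ly6C-high monocyte-like cells numbered 92, 216 and 1104. The part of class make-up and of depth in the lineage shares was not tested. Plasma cell-like cells had 8.91% (22 of 247, 5.67 to 13.2), 11% (59 of 536, 8.49 to 14) and 5.19% (4 of 77, 1.43 to 12.8), with overlapping intervals. S-high shares had the same directions in the first 2 lineages, 3.73%, 5.85% and 6.24% of lymphoid and 6.82%, 3.22% and 1.99% of myeloid cells. In plasma cell-like cells S-high shares were lower than mitotic-high ones, at 5.26%, 4.48% and 1.30%.

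Seen from the called cells, 32.2% of PBS mitotic-high cells (74 of 230, 26.2 to 38.6) lay in the pair of resident macrophage-like clusters, which held 14.8% of the library. In 3-day WGP it was 5 cells (2.12%) and in 7-day WGP 6 cells (3.26%), where those clusters held 2.41% and 0.843% of all cells. T and NK cell-like clusters held 13% of mitotic-high cells in PBS (30 cells, 8.98 to 18.1), 27.5% at 3 days (65 cells, 21.9 to 33.7) and 48.9% at 7 days (90 cells, 41.5 to 56.4). Only the 7-day value was above these clusters' share of all cells. In the same order the libraries held 132, 405 and 403 NK, 163, 191 and 292 CD8 T, and 128, 382 and 64 gamma-delta T cell-like cells. CD4 and regulatory T cell-like cells numbered 166, 179 and 233, and Lef1 ones 187, 236 and 122. Plasma cell-like cells were 25% of mitotic-high cells at 3 days, against 9.57% in PBS and 2.17% at 7 days. They were 536 of 4689 cells at 3 days, 247 of 5029 in PBS and 77 of 4035 at 7 days. These shares follow both how many cells of a type were caught and how many of them were called. Among the 3759 cells of 3-day WGP and 3328 of 7-day WGP in classes of at least 50 cells, 3.86% and 3.49% would be mitotic-high by 21 genes (without Cks2 and Cenpa, as given with the neutrophil-like cells) if each class had its PBS share called, beside 4.89% and 3.46% counted in those classes.

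**Figure D2:**
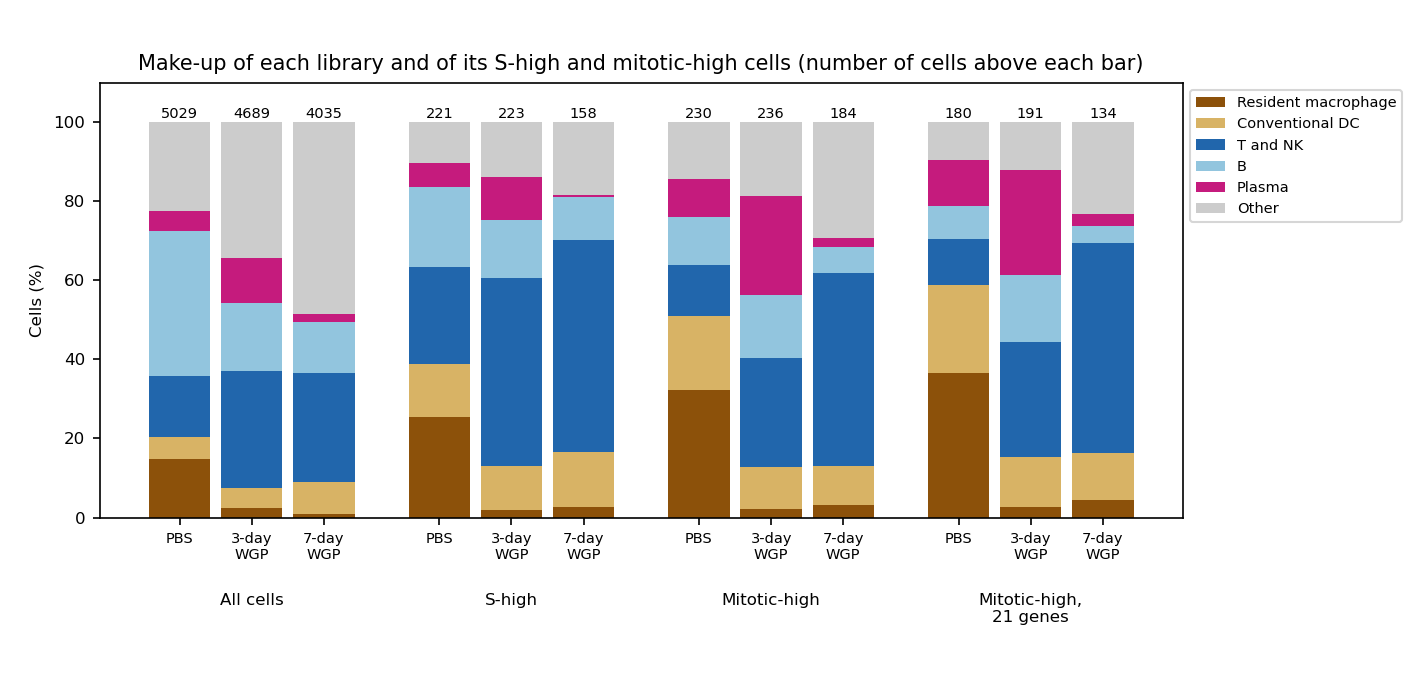
Make-up (y axis, percent of cells) of each library and of its S-high and mitotic-high cells, by groups of clusters, with the number of cells above each bar. Resident macrophage-like cells fill 32.2% of the mitotic-high bar in PBS and 2.12% and 3.26% in the WGP libraries, while T and NK cell-like cells go from 13% to 27.5% and 48.9%.

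Libraries also differed in transcripts that mark sex. Cells with Xist and no UMI of 4 Y genes numbered 1932 (PBS), 466 (3-day WGP) and 1182 (7-day WGP), and cells with Y UMIs and no Xist numbered 1648, 2394 and 1777. In PBS, 8.64% of the former and 2.61% of the latter were mitotic-high, against 8.15% and 6.10% at 3 days and 4.15% and 5.06% at 7 days. Nearly all PBS resident macrophage-like cells carried Xist, 336 of 341 in the Lyve1 cluster and 381 of 405 in the Retnla cluster, with 0 and 3 Y cells. The part of the mice's sex in the differences between libraries was not tested.

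Among myeloid types, type 1 conventional DC-like cells (cDC1; leading genes Xcr1, Cst3, Naaa and Clec9a) had the highest mitotic-high share of PBS classes and of 3-day WGP classes. It was 22.9% in PBS (27 of 118 cells, 15.7 to 31.5), then 12.9% at 3 days (18 of 139, 7.86 to 19.7) and 12.3% at 7 days (13 of 106, 6.69 to 20.1), and the intervals overlapped. Log2 ratios of these shares to PBS were -0.82 (-1.61 to -0.037) at 3 days and -0.90 (-1.78 to -0.023) at 7 days. By 21 genes they were -0.79 (-1.61 to 0.023) and -0.90 (-1.82 to 0.014). Before thinning, 48.3%, 50.4% and 39.6% of these deep cells had 2 or more mitotic UMIs. Their S-high shares were level, at 11%, 13.7% and 11.3%. In cells of at most 10000 UMIs, 4 of 25, 2 of 55 and 2 of 19 were mitotic-high. Of the same cells 0, 3 and 1 were S-high. Cells with Xist numbered 68, 5 and 27 in the class and those with Y transcripts 34, 105 and 56. Mki67 followed the mitotic call, at 287 CPM (263 to 312), 163 (145 to 182) and 162 (145 to 181), and so did Top2a, at 245, 165 and 154 CPM. Pcna did not, at 77.1, 87.4 and 89.4 CPM, nor did Mcm3, at 78.7, 76.8 and 97.3 CPM. The spindle kinesin Kif11 was the one member past a log2 ratio of -1 in 3-day WGP (68.1 to 28.6 CPM), where 0.184% of all genes were as low. Kif11 (29.0 CPM) and Ccnb2 (78.7 to 31.0 CPM) passed it at 7 days, beside 0.615% of all genes.

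The sum of S-phase CPM divided by the sum of mitotic CPM (21 genes) in cDC1-like cells went from 0.372 (0.348 to 0.398) in PBS to 0.585 (0.546 to 0.627) and 0.679 (0.634 to 0.727). Those intervals take UMIs as independent, yet in PBS 25 of the 118 cells held 92.8% of these mitotic UMIs. In PBS, Xcr1 stood at 314 CPM in the 25 cells mitotic-high by 21 genes and at 429 CPM in cells with neither call, and Irf8 at 2270 and 2253 CPM. Both genes define the cluster or its name, so the values describe it only.

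Type 2 conventional DC-like cells (cDC2; Cd209a, Clec10a) were mitotic-high in 10.0% of cells in PBS (16 of 160, 5.82 to 15.7), 7.37% at 3 days (7 of 95, 3.01 to 14.6) and 2.29% at 7 days (5 of 218, 0.749 to 5.27), and the PBS and 7-day intervals did not overlap. Unthinned shares were 41.9%, 34.7% and 33.5%. S-high shares were 10.6%, 6.32% and 4.59%, with overlapping intervals and a log2 ratio of 7-day WGP to PBS of -1.21 (-2.30 to -0.124). Top2a stood at 147, 84.1 and 41.1 CPM, Ube2c at 94.5, 55.5 and 8.62 CPM, and Pcna at 76.6, 69.0 and 57.6 CPM. At 3 days 3 of 34 members measured were lower by log2 1 or more (Mki67, Kif11 and Birc5), against 1.15% of all genes, and at 7 days 18 of 34, against 1.74%, with a median of -1.03 beside -0.09. Of these 18, 15 were mitotic (Ube2c, Cenpf, Birc5, Top2a, Ccnb2, Nusap1, Cdk1, Aurkb, Kif11, Cdc20, Bub1b, Mki67, Ccnb1, Hmmr and Ccna2) and 2 S-phase (Mcm2 and Mcm5), beside Pclaf. Top2a had -1.62 and Ube2c -2.49. In cells of at most 10000 UMIs the Top2a ratio was 0.27, of the opposite sign, and the Ube2c ratio -1.18, with mitotic-high shares of 5.26% in PBS and 0 of 69 cells at 7 days.

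Resident macrophage-like cells of both kinds were mitotic-high in PBS. The Lyve1 cluster (Lyve1, Folr2, Pf4, Mrc1) had 9.97% (34 of 341, 7.00 to 13.7) and the Retnla and Cx3cr1 cluster (Retnla, Fcrls, C1qa) 9.88% (40 of 405, 7.15 to 13.2), with unthinned shares of 29.0% and 33.3%. They differed in S phase, with S-high shares of 4.40% (2.48 to 7.15) and 10.1% (7.36 to 13.5) whose intervals did not overlap. Their summed S-phase levels were close, at 347 CPM (327 to 367) and 372 CPM (355 to 390), and in cells of at most 10000 UMIs the S-high intervals overlapped (2.58%, 0.842 to 5.91, and 7.55%, 3.96 to 12.8). Among called cells of the Lyve1 cluster, 60.5% were mitotic-high alone (23 of 38) and 21.1% S-high alone, whereas in the Retnla cluster the shares were 35.9% and 43.8%. Mki67 stood at 161 CPM in the Lyve1 cluster and 126 CPM in the Retnla cluster, and Pcna at 84.4 and 79.6 CPM.

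After WGP these clusters were small. The Lyve1 cluster had 65 cells at 3 days, of which 2 were mitotic-high (3.08%, 0.375 to 10.7) and 1 S-high. Mki67 there was 13 CPM (5.61 to 25.6) and Ube2c 6.50 CPM (1.77 to 16.6), down from 161 and 92.1 CPM, while Pcna was 114 CPM (88.7 to 144) after 84.4 (74.7 to 95.0). At 3 days 20 of 35 members measured were lower by log2 1 or more, 17 of them mitotic and 3 S-phase (Mcm5, Mcm6 and Rrm2), against 1.4% of all genes, with a median of -1.04 beside 0.04. The mitotic members that did not pass were Ccna2, Bub1, Bub1b, Plk1 and Kif11. The Mki67 ratio of -2.89 shrank to -0.36, and the Ube2c ratio of -2.63 turned to 0.08, in cells of at most 10000 UMIs. In 7-day WGP the Retnla cluster had 23 cells and the Lyve1 cluster fewer, and no share is read from them.

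Ly6C-high monocyte-like cells (Plac8, Ms4a4c, Cxcl9), the largest class of 7-day WGP with 1104 cells, were mitotic-high in 5.43% of PBS cells (5 of 92), 1.85% at 3 days (4 of 216) and 0.996% at 7 days (11 of 1104). By the 21 genes 2 of 92 cells in PBS (2.17%), 4 of 216 at 3 days (1.85%) and 3 of 1104 at 7 days (0.272%, 0.0561 to 0.792) were mitotic-high. S-high cells were 0 of 92, which allows a share of up to 3.26%, then 0.926% and 0.634%. Unthinned, 30.4%, 25.9% and 30.1% had 2 or more mitotic UMIs. Top2a was 99.6, 29.98 and 6.21 CPM and Ube2c 130, 57.4 and 1.01 CPM, but in PBS those 2 cells held 95.3% of the mitotic UMIs and 1 of them 64.1%. At 3 days 8 of 33 members were lower by log2 1 or more (0.927% of all genes) and at 7 days 24 of 31, the 23 mitotic members and Pclaf (2.42%), counts in which those 2 cells carry most of the PBS side. Without cells over 10000 UMIs the Top2a ratio went from -2.76 to 0.14. Pcna was level, at 45.4, 55.2 and 47.0 CPM.

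Arg1 macrophage-like cells (Arg1, Saa3, Gpnmb, Marco), which reached 50 cells in the WGP libraries alone, were mitotic-high in 1.18% (5 of 423) at 3 days and 2.35% (7 of 298) at 7 days, and S-high in 2.36% and 2.01%. None of the 70 plasmacytoid DC-like cells at 3 days had either call, which allows a share of up to 4.29%.

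Erythroid-like cells (Hbb-bs, Alas2), neither lymphoid nor myeloid clusters here, differed by library, with 0 of 122 mitotic-high in PBS (up to 2.46%), 2.25% at 3 days (2 of 89) and 13.4% at 7 days (11 of 82, 6.89 to 22.7). Mki67 stood there at 0, 1.41 and 284 CPM, and at 7 days Rrm2 led the S-phase members at 194 CPM, with Pcna at 47.0 CPM. At 7 days 3 of the 82 cells held 50% of the mitotic UMIs (21 genes), the highest cell 26.1%. For S-phase UMIs 2 cells held 50%.

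Neutrophil-like cells gave the background of the calls, since mature neutrophils do not divide. With 23 genes, 5 of 48 in PBS, 6.19% (13 of 210) at 3 days and 4.47% (8 of 179) at 7 days were mitotic-high, but 0 and 0 without Cks2 and Cenpa, which allows shares of up to 1.43% and 1.68%, and 0 and 0 were S-high. In PBS, where the class was under 50 cells, 0 of 48 were mitotic-high by 21 genes and 1 was S-high. Their median depth was 3517.5 and 2283 UMIs. Cks2 stood at 252 CPM (219 to 288) and 229 CPM (187 to 278), far above its all-cell level of 53.8 and 55.0, while Mki67 was 4.8 and 8.90 CPM. Cenpa was not high in them, at 28.8 and 8.90 CPM, but stood at 87.7 CPM in the shallower Ighd B cell-like cluster of PBS, where Mki67 was 0.991 CPM. Mitotic-high shares were also given without these 2 genes, for 21 genes, a list chosen after these values were seen. A separate small cluster of neutrophil-like cells led by Camp and Ngp, genes of neutrophil precursors, had 5 of 35 cells mitotic-high by 21 genes in PBS, 1 of 13 at 3 days and 4 of 6 at 7 days. By the list of 21 genes the 3 libraries had 3.58% (3.08 to 4.13), 4.07% (3.53 to 4.68) and 3.32% (2.79 to 3.92) mitotic-high cells.

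**Figure D3:**
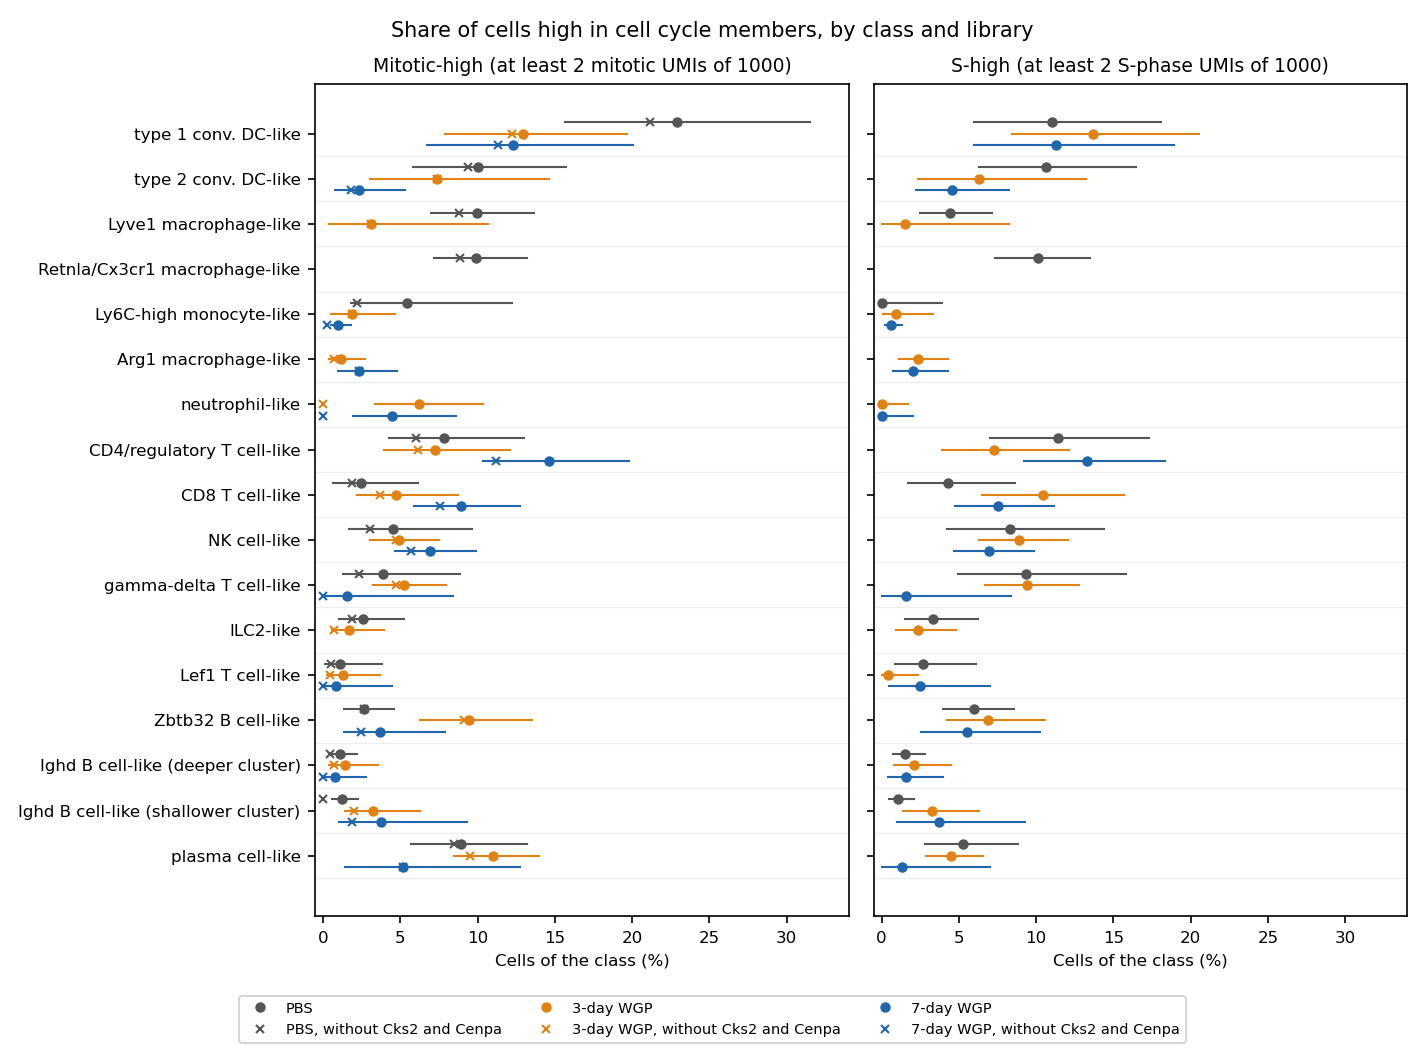
Share of cells of each class (x axis, percent) that were mitotic-high (left panel) or S-high (right panel) in PBS, 3-day WGP and 7-day WGP, for classes of at least 50 cells. Dots are the shares, bars exact 95% binomial intervals and crosses the mitotic-high share without Cks2 and Cenpa. In neutrophil-like cells the crosses sit at 0, whereas in cDC1-like cells of PBS the dot at 22.9% and the cross at 21.2% lie close together.

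Among lymphoid types, the CD4 and regulatory T cell-like cluster (Tnfrsf4, Icos, Ikzf2, Ctla4) had the highest mitotic-high share of 7-day WGP, 14.6% (34 of 233, 10.3 to 19.8), after 7.83% in PBS (13 of 166, 4.24 to 13) and 7.26% at 3 days (13 of 179, 3.92 to 12.1). The 7-day interval overlapped both others. Unthinned shares were 22.3%, 25.1% and 39.1%. S-high cells were 11.4%, 7.26% and 13.3%. Mki67 stood at 217 (188 to 249), 281 (248 to 317) and 294 CPM (269 to 319), and Top2a at 220, 259 and 316 CPM. S-phase members were highest at 7 days, Pcna at 100, 96.9 and 162 CPM, Mcm3 at 70.1, 100 and 143 CPM, and Tk1 at 18.3 (10.7 to 29.4), 39.4 (27.7 to 54.3) and 55.0 (44.8 to 66.7) CPM. Pclaf went from 168 and 158 to 300 CPM. Tk1 was the one member past a log2 ratio of 1 at 7 days, beside 2.14% of all genes, and at 3 days 0 members passed it, beside 0.545% of all genes higher and 0.355% lower. In cells of at most 10000 UMIs the mitotic-high shares were 3.36%, 1.89% and 7.77%. The S-high shares of the same cells were highest in PBS, at 6.71%, 3.77% and 4.66%.

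Foxp3, the transcription factor of regulatory T cells, marked part of those cells. In 7-day WGP 33.9% of cells with a Foxp3 UMI were mitotic-high (19 of 56, 21.8 to 47.8), against 8.47% of cells without one (15 of 177, 4.82 to 13.6). S-high cells were 26.8% (15.8 to 40.3) and 9.04% (5.26 to 14.3). By 21 genes the shares were 23.2% (13 to 36.4) and 7.34% (3.97 to 12.2). The cells with Foxp3 were also deeper, with a median of 7391 against 5074 UMIs. Foxp3 cells were few in the other libraries, with 2 of 12 mitotic-high in PBS and 3 of 19 at 3 days. The split was chosen after its values were seen, and the part of depth in it was not tested. Of 7-day cells with Y transcripts 28 of 137 were mitotic-high (20.4%), of those with Xist 3 of 31.

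CD8 T cell-like cells (Cd8b1, Ccl5, Nkg7, Xcl1) were mitotic-high in 2.45% (4 of 163, 0.673 to 6.16), 4.71% (9 of 191, 2.18 to 8.76) and 8.90% (26 of 292, 5.90 to 12.8) from PBS to 7-day WGP, with PBS and 7-day intervals that overlapped slightly. Unthinned shares were 11%, 16.2% and 33.9%. S-high cells were most common at 3 days, 4.29% (1.74 to 8.65), 10.5% (6.51 to 15.7) and 7.53% (4.78 to 11.2). Mki67 was 56.8 CPM (42.0 to 75.1) in PBS, 153 (131 to 177) at 3 days and 151 (136 to 166) at 7 days, and Top2a 109, 165 and 186 CPM. Pcna stood at 81.2, 78.1 and 105 CPM. At 3 days 6 of 36 members were higher by log2 1 or more (Ccnb2, Mki67, Cdk1, Cenpe, Ccnb1 and Cenpf), against 0.3% of all genes, and at 7 days 6 of 35 (Cdk1, Ube2c, Ccnb1, Mki67, Cenpf and Cenpe), against 0.987%. The members named are all mitotic, and 1 of the 191 cells at 3 days held 47.2% of its class's mitotic UMIs. The 7-day Mki67 ratio was 1.26, and 1.33 in cells of at most 10000 UMIs, where 0.658%, 2.96% and 3.29% of cells were mitotic-high.

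NK cell-like cells (Ncr1, Klrb1c, Gzma, Prf1) had similar mitotic-high shares in the 3 libraries, 4.55% (6 of 132, 1.69 to 9.63), 4.94% (20 of 405, 3.04 to 7.52) and 6.95% (28 of 403, 4.67 to 9.89), with overlapping intervals, and S-high shares of 8.33%, 8.89% and 6.95%. Unthinned, the mitotic shares were 15.2%, 17% and 23.8%. Their summed levels differed more. Mki67 stood at 40.4 (26.1 to 59.6), 139 (123 to 156) and 182 CPM (166 to 199), Top2a at 48.5, 144 and 181 CPM, and Ube2c at 3.23 (0.391 to 11.7), 54.9 (45.0 to 66.3) and 88.3 CPM (77.4 to 100). Rrm2 was the S-phase member that moved most, at 8.08 (2.62 to 18.8), 56.9 and 54.2 CPM, while Pcna was 75.9, 106 and 96.8 CPM and Mcm6 123, 127 and 95.0 CPM. Past log2 1 were 13 of 33 members at 3 days (0.705% of all genes), and 14 of 34 at 7 days (1.34%). At both times these were Ube2c, Nusap1, Mki67, Top2a, Kif11, Ccna2, Ccnb1, Cenpf, Aurkb and Birc5 with Rrm2, Tyms and Pclaf, joined by Cenpa at 7 days. S-phase over mitotic CPM (21 genes) went from 2.09 (1.75 to 2.50) to 0.993 (0.925 to 1.07) and 0.636 (0.60 to 0.674). Those intervals take UMIs as independent, yet in PBS 4 of the 132 cells held 72.7% of these mitotic UMIs. In cells of at most 10000 UMIs the 7-day ratio of Mki67 went from 1.93 to 0.24 and that of Top2a from 1.71 to 0.0038.

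Gamma-delta T cell-like cells (Trdc, Cd163l1, Il17a) were mitotic-high in 3.91% (5 of 128), 5.24% (20 of 382) and 1.56% (1 of 64), and S-high in 9.38% (4.94 to 15.8), 9.42% (6.69 to 12.8) and 1.56% (0.0396 to 8.40). Mki67 stood at 132 CPM (104 to 165), 119 (103 to 137) and 12.1 (3.30 to 31.0), and Top2a at 98.2, 155 and 24.2 CPM. Ube2c was the one member past log2 1 at 3 days, beside 0.378% of all genes. At 7 days 24 of 33 members were lower, 15 mitotic and 7 S-phase, with Pclaf and Uhrf1, but 4.64% of all genes were as well, and the class held 64 cells. ILC2-like cells (8 of 9 ILC2 markers, among them Gata3, Il1rl1 and Areg, but led by Cma1 and also rich in Mcpt4 and Cpa3, genes of mast cell proteases) had 2.58% and 1.69% mitotic-high cells in PBS and 3-day WGP. Lef1 T cell-like cells (Lef1, Tcf7, Dapl1), a profile of resting T cells, were lowest among T clusters, with 1.07%, 1.27% and 0.820%.

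**Figure D4:**
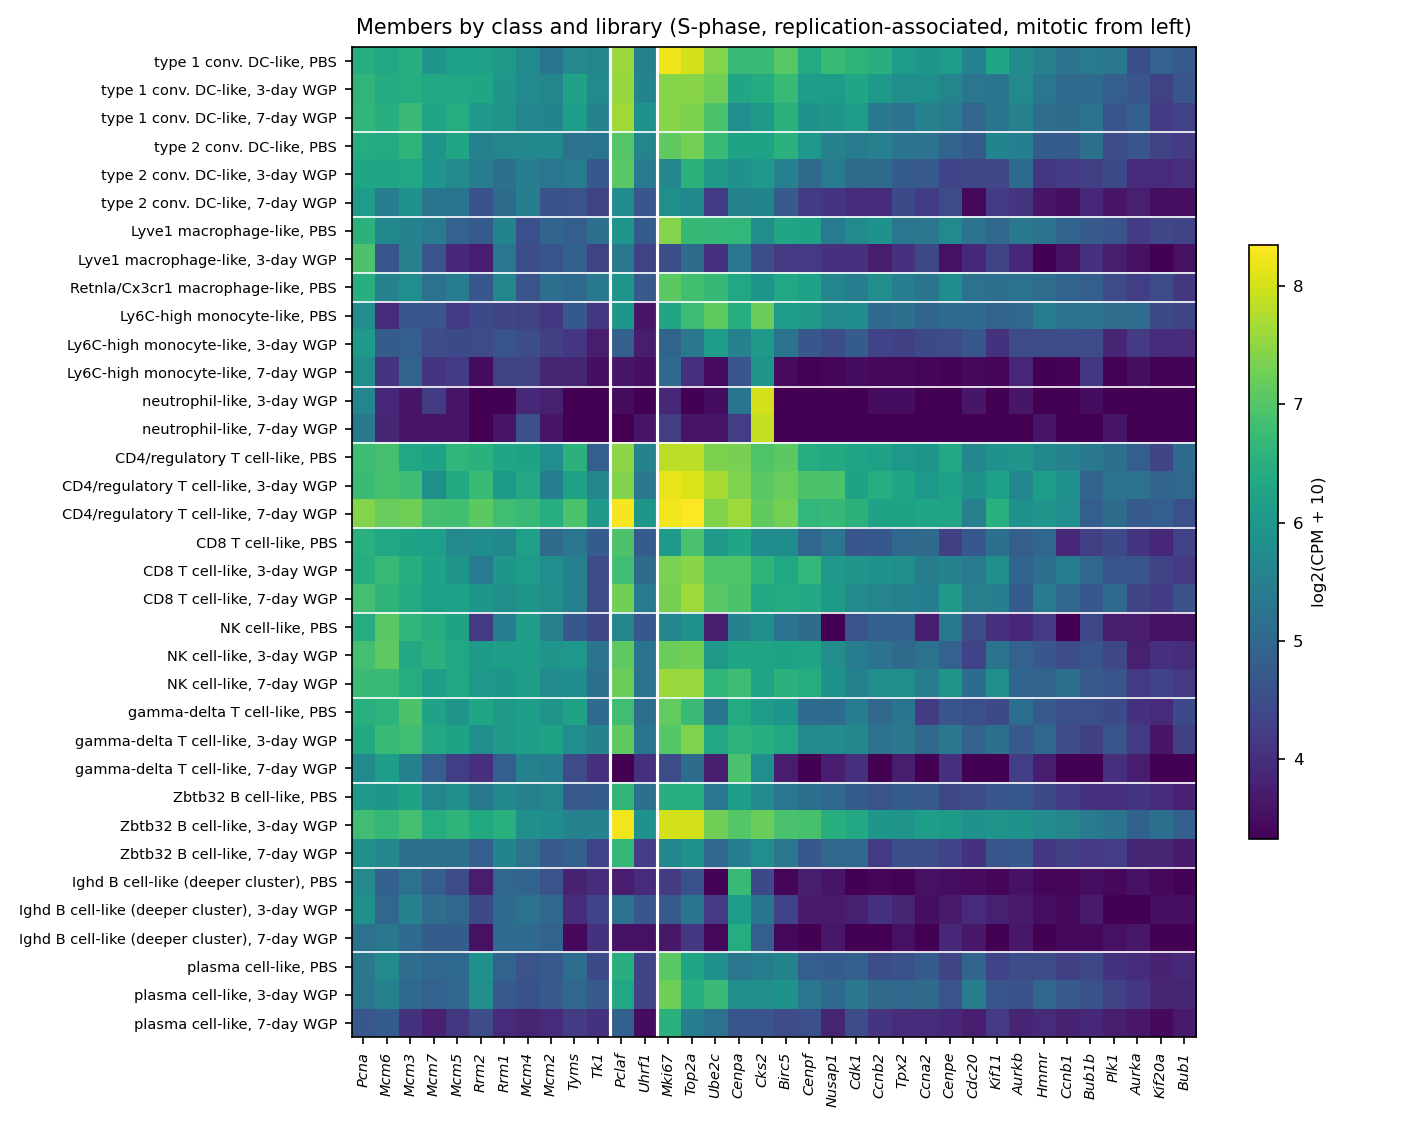
Level of each member (columns), as log2(CPM + 10) on the colour scale, in classes of at least 50 cells by library (rows). Mitotic members are high together in cDC1-like and CD4 and regulatory T cell-like cells in each library and in Zbtb32 B cell-like cells at 3 days, and low in neutrophil-like cells apart from Cks2.

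B cell-like clusters split. The one led by Ms4a1, Cd79b and Zbtb32 had 2.65% mitotic-high cells in PBS (12 of 452, 1.38 to 4.59), 9.45% at 3 days (26 of 275, 6.27 to 13.5) and 3.70% at 7 days (6 of 162, 1.37 to 7.89), and the PBS and 3-day intervals did not overlap. Before thinning the shares were 26.3%, 25.1% and 20.4%. S-high shares stayed level, 5.97%, 6.91% and 5.56%. Mki67 went from 79.7 CPM (72.1 to 87.9) to 252 (233 to 271) and back to 40.8 (30.8 to 52.9), and Top2a from 76.3 to 247 and 49.5 CPM. Ube2c stood at 29.1, 142 and 22.6 CPM and Pclaf at 87.5, 294 and 91.7 CPM, while Pcna was 55.2, 103 and 47.3 CPM. At 3 days 23 of 36 members were higher by log2 1 or more, against 1.02% of all genes, with a median of 1.22 beside 0.03. They were 21 of the 23 mitotic members (not Cenpa or Aurka), Rrm2 and Pclaf. At 7 days Mcm3 alone passed, on the lower side (64.2 to 26.2 CPM), beside 0.178% of all genes. The 25 cells called by 21 genes held 96.6% of the mitotic UMIs. Of cells with Xist 16 of 55 were mitotic-high, of those with Y transcripts 7 of 131. In cells of at most 10000 UMIs the share was 0.851% in PBS, 1.67% at 3 days and 4.35% at 7 days, and the Mki67 ratio went from 1.54 to -0.12.

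Those 25 cells differed from cells of the cluster with neither call in other genes, picked after their values were seen. S1pr2, a receptor that keeps B cells in follicles, was 81.0 CPM in them against 6.93 CPM in the 240 cells with neither call, Rgs13 79.4 against 8.0 CPM, Fas 69.8 against 10.1 CPM, and the repressor Bcl6 63.5 against 15.5 CPM. Ighd, the IgD heavy chain of resting B cells, was lower, at 46.0 against 191 CPM, and Zbtb32 was 96.8 against 110 CPM. In PBS the 12 called cells had 57.2 CPM of S1pr2, against 2.48 CPM. Median depth was 22021 UMIs in the called 3-day cells and 6013 in cells with neither call, and no cell type name is given to them.

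Both Ighd B cell-like clusters, which are Fcer2a and Cr2 or Cd55 rich, were mostly uncalled. The deeper one had 1.08%, 1.40% and 0.784% mitotic-high cells. In the shallower one the 21 genes gave 0 of 745 cells in PBS (up to 0.403%), 5 of 247 at 3 days (2.02%) and 2 of 107 at 7 days (1.87%). At 3 days 35 of 36 members were higher by log2 1 or more (2.06% of all genes), yet those 5 cells held 98.1% of the mitotic UMIs. They carried 469 CPM of Vpreb1 and 762 CPM of Igll1, the surrogate light chain genes of B cell precursors, against 34.3 and 10.3 CPM in cells with neither call, and 9.77 against 898 CPM of Ighd. Another 11 mitotic-high cells of 124 lay in a mixed cluster with acinar transcripts at 3 days. They had 45738 CPM of Ighm and 185 CPM of Ctrb1, against 11444 and 17104 CPM in its cells with neither call.

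Plasma cell-like cells (Jchain, Mzb1, Txndc5; 7 of 7 plasma markers) had more mitotic than S-phase UMIs, with S-phase over mitotic CPM (21 genes) at 0.572, 0.391 and 0.375. Immunoglobulin UMIs took a median of 50.3%, 44.6% and 63.6% of a cell in the order PBS, 3-day and 7-day WGP. With those left out before thinning, a setting chosen after the data were seen, mitotic-high shares were 11.8%, 14.9% and 10.4%, against 8.91%, 11% and 5.19% with them. Before thinning, 54.7%, 62.1% and 61.0% had 2 or more mitotic UMIs. Mki67 stood at 123 (115 to 131), 142 (136 to 148) and 82.6 CPM (73.0 to 93.2), Ube2c at 48.2, 98.1 and 26.8 CPM, and Cdc20 at 21.2, 33.3 and 3.43 CPM. Rrm2 led the S-phase members in PBS and at 3 days, at 47.3 and 46.5 CPM, and had 12.8 CPM at 7 days. Past log2 1 were 0 of 32 members at 3 days, beside 0.176% of all genes higher and 0.512% lower. At 7 days 7 of 31 were lower (Pclaf, Rrm2, Mcm7, Cdc20, Birc5, Mcm3 and Rrm1), beside 3.39% of all genes, with 4 called cells behind them.

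In plasma cell-like cells of 3-day WGP, 63.6% of called cells (42 of 66, 50.9 to 75.1) were mitotic-high alone and 22.7% S-high alone. Their mitotic UMIs were spread widely. The 51 called cells held 54.0% of them, against 96.6% in Zbtb32 B cell-like, 94.8% in CD8 T cell-like and 88.5% in NK cell-like cells of the same library. In those 51 cells Sdc1 was 155 CPM and Xbp1 1202 CPM, against 141 and 1137 CPM in cells with neither call. Igha was 5.72 against 940 CPM and Jchain 21764 against 29213 CPM.

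A comparison of phases, in cells called S-high or mitotic-high by 21 genes, set the classes apart. Over all cells, S-high alone made up 45.9% (40.5 to 51.5) in PBS, 44.3% (39.0 to 49.7) at 3 days and 39.6% (33.2 to 46.4) at 7 days, and both calls together 20.4% (16.2 to 25.2), 20.7% (16.5 to 25.4) and 31.5% (25.5 to 38.1). S-high alone was most of the called CD8 T cell-like cells at 3 days, 69.6% (47.1 to 86.8), and 35.3% (19.7 to 53.5) at 7 days. In NK cell-like cells it was 54.8% at 3 days and 41.0% at 7 days, and in gamma-delta T cell-like cells 60.9% at 3 days. Zbtb32 B cell-like cells had 62.5% S-high alone in PBS (43.7 to 78.9) and 26.5% at 3 days (12.9 to 44.4), whereas 15.6% (5.28 to 32.8) and 44.1% (27.2 to 62.1) were mitotic-high alone. In cDC1-like cells of PBS the balance lay with the mitotic call, with 60.6% mitotic-high alone (42.1 to 77.1) and 24.2% S-high alone.

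**Figure D5:**
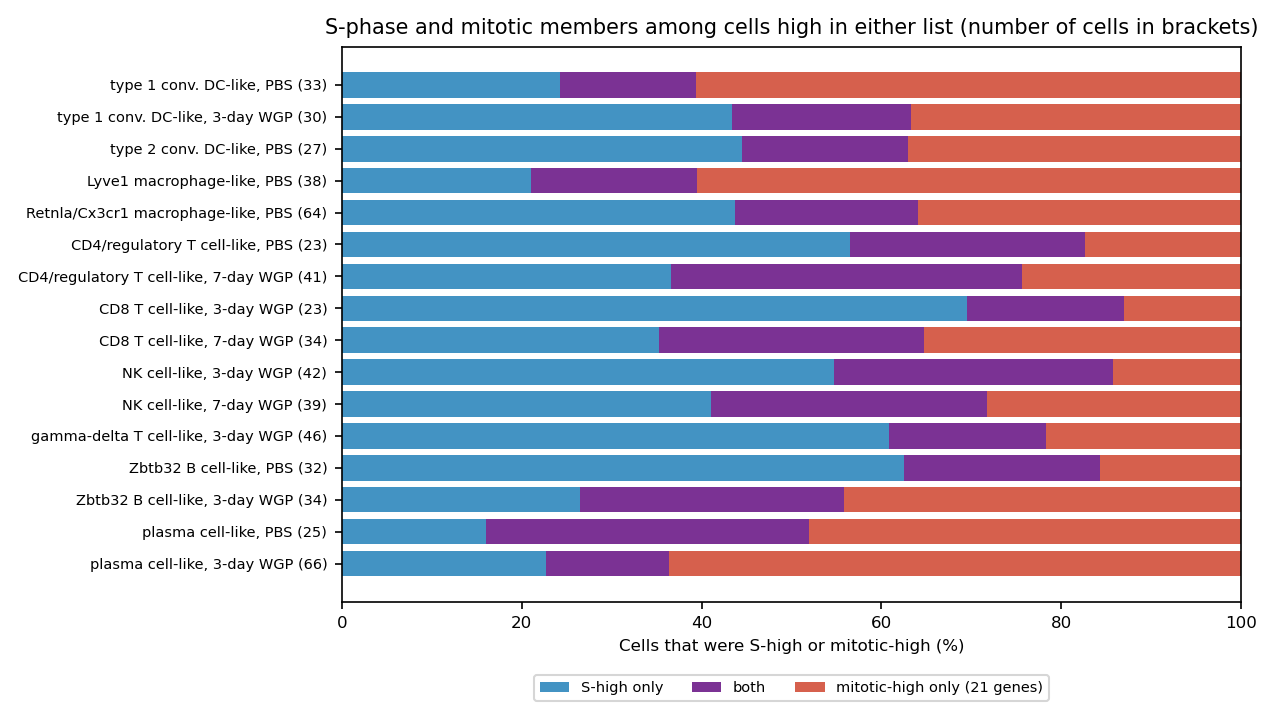
Called cells of each class and library (x axis, percent) split into S-high alone, both and mitotic-high alone by 21 genes, for classes with at least 20 called cells. CD8 T cell-like cells of 3-day WGP are 69.6% S-high alone, whereas plasma cell-like cells of 3-day WGP are 63.6% mitotic-high alone.

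Across 55 points, each a class in a library, members did not track the mitotic sum alike. Each member's CPM was set against the summed mitotic CPM of the other genes, over points that share libraries and depth. Birc5 (Pearson's r 0.954) and Cdk1 (0.945) were closest, and Cks2 (0.463) and Cenpa (0.543), the CENP-A histone gene, the farthest among mitotic members. Pclaf (0.913) and Rrm2 (0.879) followed the mitotic sum more than Pcna (0.513) and Mcm4 (0.528). Of genes outside the list, those most like it were Kif22 (0.917), Ska1 (0.911), Spc24 (0.905), Neil3 (0.892) and Shcbp1 (0.888). The sum was also carried by few cells, as 50% of the UMIs of the 21 genes lay in 51, 59 and 34 cells of the 3 libraries.

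Other cell cycle genes, from lists written with the members, mostly did not pass the limit over whole libraries. By a log2 ratio of 1, 0 of 6 measured G1 cyclins and kinases, 0 of 6 transcription factors, 0 of 13 replication genes and 0 of 10 chromatin and tubulin genes passed in either WGP library, as did 0 of 16 spindle genes at 3 days and 0 of 15 at 7 days. Over all genes 1.19% were higher and 0.8% lower by as much at 3 days, and 3.7% and 1.43% at 7 days. Some lay near it, as cyclin D1, encoded by Ccnd1, stood at 80.7, 35.5 and 46.7 CPM and the kinesin Kif23 at 27.3, 15.2 and 16.4 CPM. Of 7 inhibitors and pocket proteins, Cdkn1a (p21), an inhibitor of cyclin-dependent kinases, alone was higher, and at 7 days, beside 3.7% of all genes. It stood at 36 CPM (34.2 to 37.8) in PBS, 60.1 (58.0 to 62.3) at 3 days and 190 (186 to 194) at 7 days. It was also higher within the classes given here as examples, and other classes are not given. In Ly6C-high monocyte-like cells it was 183, 241 and 385 CPM, in cDC2-like cells 93.1, 105 and 246, and in CD4 and regulatory T cell-like cells 6.48, 19.2 and 66.8.

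Cells mitotic-high by 21 genes and cells with neither call, set against each other within a library, show how other cell cycle genes went with the calls. Stmn1 (stathmin) was 1244 against 22.4 CPM in PBS, Prc1, a midzone protein, 251 against 2.45 CPM, and Foxm1, a factor of mitotic genes, 47.1 against 0.458 CPM. The replication genes Lig1 (137 against 10.2 CPM) and Gmnn (137 against 15.6 CPM) were higher as well. Cdkn2c, a kinase inhibitor, was on the same side, at 90.7 against 9.71 CPM. Cdkn1a was not constant, at 55.0 against 33.6 CPM in PBS, but 19.3 against 66.3 CPM at 3 days and 63.0 against 200 CPM at 7 days. The called cells differ in class from the others, so these pairs are not free of cell type.

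Within classes, counts of spindle and division genes outside the members past the limit lay on the side of the mitotic members. In Zbtb32 B cell-like cells at 3 days 9 of 23 measured were higher by log2 1 or more, against 1.02% of all genes, with a median of 0.94, led by Kif23 (14.5 to 61.7 CPM), Cdca3 (21.1 to 75.8 CPM) and Kif2c (2.39 to 19.8 CPM). In NK cell-like cells 3 of 18 were higher at 3 days (0.705% of all genes; median 0.66) and 9 of 22 at 7 days (1.34%; median 0.88), with Kif23 at 4.85, 27.4 and 36.7 CPM. In cDC2-like cells at 7 days 9 of 17 were lower (1.74%; median -1.18), with Prc1 (36.7 to 4.31 CPM) and Cdca8 (52.2 to 11 CPM) at the head, and in Lyve1 cells at 3 days 12 of 23 (1.4%; median -1.02), led by Kif23 (94.3 to 14.6 CPM). In cells of at most 10000 UMIs none of these genes passed in Zbtb32 B or NK cell-like cells at either time named, 3 passed in cDC2-like cells and 1 in Lyve1 cells on the same side, and the medians were 0.16, -0.29, -0.18, -0.52 and 0.15 in the order above. Of replication genes, 1 of 18 was higher in Zbtb32 B cell-like cells, Lig1 at 3 days (29.3 to 84.2 CPM; 1.02% of all genes). Cyclin D2, encoded by Ccnd2, went the other way in the same B cells, at 501, 245 and 213 CPM.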

How the data were processed

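Live CD45+ pancreas cells of PBS, 3-day WGP and 7-day WGP mice were measured by 3′ single-cell RNA-Seq, 1 library each, grouped by the labels. The deposited values are raw UMI counts per gene and barcode over unfiltered barcodes, which the authors made with Cell Ranger 3.1.0 on mm10. Their later filters and regression of cell cycle were not in these counts.

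Barcodes with at least 1000 UMIs and at most 30% mitochondrial UMIs were kept. Scrublet called 0, 0 and 2 doublets by its own limit, so the 220, 190 and 139 barcodes of highest score (0.8% per 1000 barcodes) were left out. Cells were clustered with scanpy 1.11.5 (2000 variable genes, 30 components, 15 neighbours, Leiden resolution 1). Left out of clustering were 407 genes, from 120 on cell cycle lists and 385 correlated with the mitotic members over cells (Pearson's r over 0.15), which overlap. Mitochondrial, ribosomal, Xist, Y, histone and immunoglobulin variable genes were left out as well. The 28 clusters were named from marker lists, so names are rebuilt, and defining genes are no results. Each cell was thinned to 1000 UMIs for calls, and levels are UMIs summed over a class, per 1e+06 (CPM). Ratios are log2(CPM + 10) differences over genes that reached 10 CPM, with 1 as the limit. Bounds are exact Poisson or binomial at 95% (scipy 1.17.1), and a count of 0 allows 3 counts. The code was tested on simulated data.

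The members and lists were chosen with earlier results of these data known. Genes were named by a rule: 14 members over all cells, leading members and those past the limit in the 5 classes of highest mitotic-high share, the 3 most changed genes of each pathway list, and 5 alike genes. Other named genes were chosen after their values were seen. Alternatives were another call limit, depth, thinning, clustering, doublet, ribosomal and sex-transcript settings. Added after seeing the data were the 21 mitotic genes, immunoglobulin UMIs left out, named immune clusters only, and spindle genes in cells of at most 10000 UMIs.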

Additional observations from a re-analysis of the deposited data

Results flagged for a closer look

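Barcodes of at most 100 UMIs, which hold free RNA and enter no comparison between groups, carried transcripts of the 21 mitotic members without Cks2 and Cenpa. Summed, they came to 465 CPM in the PBS library, 388 CPM in 3-day WGP and 321 CPM in 7-day WGP, all above the limit that a count of 0 allows. In kept cells the same sums were 541, 573 and 467 CPM. With 1 library per group no value could stand apart within a group.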

How the results depend on the processing

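No paired analysis was possible because each group is 1 library. Mitotic-high shares over a library gave a log2 ratio to PBS of 0.14 at 3 days and -0.0042 at 7 days, and S-high shares gave 0.11 and -0.17. For mitotic-high cells these became 1.22 at 3 days and 0.96 at 7 days among cells with Y transcripts, -1.06 at 7 days among cells with Xist, 0.33 at 7 days without thinning and 0.36 at 7 days in cells of at most 10000 UMIs. For S-high cells they became 0.59 at 3 days in cells of at most 10000 UMIs, -0.37 and 0.93 at 3 days with Xist and with Y transcripts, and at 7 days -0.87 with Xist, 0.58 with Y transcripts, 0.15 without thinning and 0.28 with at least 3 UMIs. The cause was not tested. The other settings moved none of these 4 ratios beyond its interval.

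An upper limit of 10000 UMIs turned the sign of 4 of the 13 gene ratios given by value. They were Mki67 at 3 days in Zbtb32 B cell-like cells (-0.12), Top2a at 7 days in Ly6C-high monocyte-like cells (0.14) and in type 2 conventional DC-like cells (0.27), and Ube2c at 3 days in Lyve1 macrophage-like cells (0.083). Of all 237 member ratios past 1 that could be computed under it, 18 stayed past 1, 124 kept their sign under 1, 68 changed sign and 27 had no UMI on either side. The mean of per-cell CPM left 87 of 244 past 1 and a pseudocount of 1 CPM left 244.

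Of 94 class shares, 42 moved outside their interval with at least 3 UMIs and 4 with no doublets left out. The upper limit moved 36 of 92, cell cycle and correlated genes kept for clustering 29 of 90, Xist cells 37 of 78 and Y cells 22 of 84. The list of 21 genes moved 8 of 47 mitotic-high shares.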
